A study of Mus musculus with 4 samples.

Results

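The subject is a set of 10 genes, 9 of them genes that macrophages express (Csf1r, Mrc1, Adgre1, Cx3cr1, C1qa, C1qb, Cd68, Lyz2 and Ptprc) and the growth factor gene Csf1. They were chosen by name from the 51098 genes of a deposited count table, and each name matched 1 row. The table describes stomachs taken from mouse embryos (embryonic day E15.5), measured by RNA sequencing of total RNA after removal of ribosomal RNA. The study set stomachs homozygous for an Fgf9 allele carrying LacZ (Fgf9LacZ/LacZ, called Fgf9_null here) against stomachs with 1 such allele (Fgf9LacZ/+, called Fgf9_het here), with 2 samples in each group. All 4 samples thus carry the LacZ allele, and no sample has only normal copies of Fgf9, a gene for a secreted fibroblast growth factor; the labels name no treatment beside genotype, and pooling of embryos is not described in them.

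Macrophages of the embryo arise from precursors of the yolk sac and fetal liver and settle in growing organs, where they engulf dying cells and shape vessels and nerves. Their survival depends on the receptor tyrosine kinase CSF1R, which binds the growth factor CSF1, made largely by mesenchymal and endothelial cells, and its second ligand IL34. In the gut wall, macrophages lie near muscle and enteric neurons, and the transcription factor PU.1, encoded by Spi1, is needed for their formation.

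The 4 columns did not hold 4 independent libraries. Among genes with 10 or more reads summed over a pair of columns, counts were equal within 0.001 reads for 60.8% of genes between the columns numbered 2 of both labels and for 59.1% between those numbered 3. For the 10 genes studied here, 17 of 20 such pairs were equal in the file, and the largest difference was 0.012 reads, less than the sampling noise. Same-numbered columns were therefore averaged and counted as 1 sample, called library 2 and library 3, and which genotype either library had is not resolved. The table holds 2 further columns of values without a name, so the names in its header may be shifted against the values, and a label beside a value below is only the name above that column. Totals ran from 19269851 to 22713416 estimated counts per column. Fgf9 had 133 reads in both columns numbered 2 and 131 reads in both columns numbered 3. All 10 genes of a list for stomach wall and epithelium, among them the mesenchymal factor Barx1 and the protease gene Cym, exceeded 1 CPM (reads scaled by the column's total) in both libraries.

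Promoter windows were searched for letters that several of these genes share near their start. RefSeq windows on build GRCm38.p6, from 250 bases before to 50 bases after a gene's start, were found for 7 of the 10 genes; C1qa, Adgre1 and Csf1r have no entry. The letters GGAAGT, a core that ETS factors such as PU.1 recognise, were searched on both strands, where the reverse complement is ACTTCC. They occurred in 5 of the 7 genes (Mrc1, C1qb, Cd68, Lyz2 and Ptprc) and were absent from the windows of Csf1 and Cx3cr1. Among all 27025 genes with a window, 26.5% had the letters in at least 1 window. The motif was chosen after the sequences had been read, and a match is neither a bound site nor a cause of expression. The windows below were picked because they carry the match in 3 macrophage genes with different roles, with Csf1 as the growth factor gene without one and Lyz1 as the close copy of Lyz2; capitals mark the match.
C1qb (chr4:136886151-136886450, minus strand): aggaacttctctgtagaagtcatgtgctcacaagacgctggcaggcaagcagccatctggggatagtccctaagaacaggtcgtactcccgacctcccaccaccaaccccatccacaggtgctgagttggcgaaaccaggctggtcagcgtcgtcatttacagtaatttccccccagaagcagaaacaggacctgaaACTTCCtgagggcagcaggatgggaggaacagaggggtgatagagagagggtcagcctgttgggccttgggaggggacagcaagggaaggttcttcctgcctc
Cd68 (chr11:69666121-69666420, minus strand): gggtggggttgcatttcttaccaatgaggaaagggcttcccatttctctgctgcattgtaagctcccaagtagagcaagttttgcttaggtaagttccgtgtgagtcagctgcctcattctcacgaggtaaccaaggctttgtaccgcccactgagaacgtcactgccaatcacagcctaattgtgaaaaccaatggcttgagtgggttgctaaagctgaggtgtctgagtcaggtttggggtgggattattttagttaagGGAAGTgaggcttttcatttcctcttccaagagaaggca
Lyz2 (chr10:117282223-117282522, minus strand): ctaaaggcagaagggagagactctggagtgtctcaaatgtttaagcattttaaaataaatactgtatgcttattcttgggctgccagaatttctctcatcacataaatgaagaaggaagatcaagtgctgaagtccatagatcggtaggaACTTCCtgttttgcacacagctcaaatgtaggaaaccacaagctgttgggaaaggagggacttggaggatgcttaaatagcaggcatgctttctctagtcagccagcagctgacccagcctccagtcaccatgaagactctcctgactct
Lyz1 (chr10:117292819-117293118, minus strand): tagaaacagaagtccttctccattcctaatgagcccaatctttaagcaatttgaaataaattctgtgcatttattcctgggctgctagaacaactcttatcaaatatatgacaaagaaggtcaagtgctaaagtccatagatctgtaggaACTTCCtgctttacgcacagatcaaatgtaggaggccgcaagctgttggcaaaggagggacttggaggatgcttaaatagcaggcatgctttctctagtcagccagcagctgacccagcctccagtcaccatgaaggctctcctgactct
Csf1 (chr3:107760420-107760719, minus strand): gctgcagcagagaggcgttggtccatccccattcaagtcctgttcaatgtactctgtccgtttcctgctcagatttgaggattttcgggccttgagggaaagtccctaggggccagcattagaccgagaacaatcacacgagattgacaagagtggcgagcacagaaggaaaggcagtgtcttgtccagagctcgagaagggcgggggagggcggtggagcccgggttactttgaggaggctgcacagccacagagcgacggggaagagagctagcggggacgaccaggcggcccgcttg

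The match began 53 bases before the start of C1qb, 100 bases before the start of Lyz2 and 11 bases after that of Cd68. It lay 211 bases before the start in Mrc1. Ptprc had matches at 112 and 58 bases before the start of its first RefSeq entry. These starts are those of RefSeq and can differ from the gene spans printed below, which come from GENCODE. The first Ptprc window (138175256 to 138175555) lies inside the Ptprc span, so its matches fall within the annotated gene. The Cd68 match falls just outside the Cd68 span. The Lyz2 and Lyz1 windows were identical at 141 of their last 150 positions and shared the match at the same place. Over the whole 300 bases, compared without gaps, 201 positions (67.0%) were identical.

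The receptor gene Csf1r had the highest CPM of the 10 genes, on a scale that grows with transcript length. Csf1r (ENSMUSG00000024621, GRCm38 chromosome 18, 61100598 to 61132149, plus strand, protein coding, with 21 exons in its longest transcript) had 37.6 and 39.2 CPM in the Fgf9_null columns numbered 2 and 3 and 38.1 and 39.7 CPM in the Fgf9_het columns. Its mean was 38.6 ± 1.13 CPM (SD, n = 2 libraries). Library 3 was the higher one, by less than the counting error. As this is whole tissue, more macrophages and more Csf1r RNA per macrophage cannot be told apart. Csf1r overlaps Hmgxb3 on the opposite strand, and 14.6% of its 31-base words also occur in transcripts of that gene. Its estimated counts, 733.876 and 889.542 under the Fgf9_null label, were not whole, so part of its reads was divided between genes.

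Csf1, the ligand gene, stood close to its receptor. Csf1 (ENSMUSG00000014599, chromosome 3, 107741048 to 107760469, minus strand) had 31.4 and 29.9 CPM in the Fgf9_null columns and 31.8 and 30.2 CPM in the Fgf9_het columns, with a mean of 30.8 ± 1.10 CPM. Here library 2 was the higher one. The second ligand gene Il34 had 35 reads in each library and a mean of 1.68 ± 0.179 CPM. To compare genes, levels were divided by the length of the union of annotated exons. On that scale Csf1 was 6.50 times as high as Il34 in library 2 and 7.19 times in library 3. Such ratios depend on the length chosen, most where the longest transcript is much shorter than the exon union. The Csf1r level per kilobase was 1.09 times that of Csf1 in library 2 and 1.20 times in library 3.

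Other growth factor systems of myeloid cells were detected unevenly. Of a list of 10 cytokine and receptor genes of the CSF and FLT3 families, 7 exceeded 1 CPM in both libraries and Csf2 had no reads, which allows at most 0.156 CPM at a floor of 3 counts. Csf2ra, a receptor chain for the cytokine GM-CSF, had 27.9 ± 1.41 CPM, while its signalling partner Csf2rb had 2.87 ± 0.219 CPM. Flt3, a receptor of early blood precursors and dendritic cells, had 9 and 10 reads. Within the receptor family that Csf1r belongs to, the level per kilobase of Pdgfrb, a receptor of mesenchyme and pericytes, was 3.76 and 4.11 times that of Csf1r in libraries 2 and 3. Pdgfra was 2.47 and 2.53 times as high as Csf1r per kilobase, and Kit, expressed by interstitial cells of Cajal and mast cells, 2.42 and 2.30 times. Csf1r exceeded Flt3 by 87.2 and 95.1 times on the same scale, with Flt3 resting on those few reads. With the longest transcript as the length, the order within this family changed. Kit then averaged 26.8, Pdgfrb 26.6, Pdgfra 24.5 and Csf1r 8.22 CPM per kilobase.

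Surface receptors came next by CPM. Mrc1, the mannose receptor by which macrophages take up glycoproteins (ENSMUSG00000026712, chromosome 2, 14229392 to 14332057), had 31.7 and 28.7 CPM in the Fgf9_null columns and 32.2 and 29.1 CPM in the Fgf9_het columns. Its level was higher in library 2, with a mean of 30.4 ± 2.17 CPM. Mrc1 is also expressed by lymphatic and sinusoidal endothelium. A list of 7 genes of such endothelium summed to 94.1 CPM in library 2 and 81.3 CPM in library 3, with 4 of the 6 genes above 1 CPM higher in library 2. Reln, the most abundant gene of this list, had 34.9 and 25.7 CPM, the widest gap in CPM among them. Prox1 had 6.70 and 5.27 CPM, Ccl21a 6.76 and 5.07 CPM, and Lyve1, also listed here among macrophage genes, 7.27 and 5.41 CPM. Flt4 had 28.7 and 28.8 CPM and Pdpn 8.86 and 9.30 CPM, both slightly higher in library 3. Stab2 had 19 and 40 reads, 1.81-fold higher in library 3. None of the list was at 0, and the part of such endothelium in the level of Mrc1 was not tested. Mrc2, the family member of mesenchymal cells, was 3.62 and 4.14 times as high as Mrc1 per kilobase. Ly75, a family member of dendritic cells and epithelia, had 32 reads in library 2 and 56 in library 3, which is just past 1.5-fold by CPM.

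Cx3cr1, the receptor for the chemokine fractalkine and a mark of tissue macrophages and microglia (ENSMUSG00000052336, chromosome 9, 119901616 to 120069879), had 15.7 and 16.3 CPM in the Fgf9_null columns and 15.9 and 16.5 CPM in the Fgf9_het columns. The mean was 16.1 ± 0.433 CPM, and the libraries differed by less than their counting error. Its annotated span overlaps 9 other genes, among them Wdr48 and Gorasp1, and its estimated counts of 306.22 and 370.005 were not whole. Cx3cl1, which encodes fractalkine, stood at 10.9 CPM in library 2 against 16.6 CPM in library 3, a 1.52-fold difference with a counting interval (exact, 95%) that left out 1. Cx3cr1 itself was 1.04-fold higher in library 3, with an interval of 0.891 to 1.21.

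Adgre1 encodes the adhesion receptor that the classical mouse macrophage antibody detects (ENSMUSG00000004730, chromosome 17, 57358691 to 57483527). Library 2 gave 5.32 CPM (Fgf9_null label) and 5.40 CPM (Fgf9_het label) from 104 reads, and library 3 gave 5.15 and 5.22 CPM from 117 reads. The mean of 5.27 ± 0.124 CPM had the smallest SD of the 10 genes. Adgre5, a family member found on many leukocytes, had 47.4 ± 2.50 CPM and was 7.34 and 8.18 times as high as Adgre1 per kilobase.

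Ptprc encodes the phosphatase CD45 on the surface of leukocytes (ENSMUSG00000026395, chromosome 1, 138062861 to 138175708). It had 7.63 and 7.84 CPM in the Fgf9_null columns and 7.73 and 7.94 CPM in the Fgf9_het columns. The 4 columns lay between 7.63 and 7.94 CPM. The mean was 7.78 ± 0.147 CPM.

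**Figure D1:**
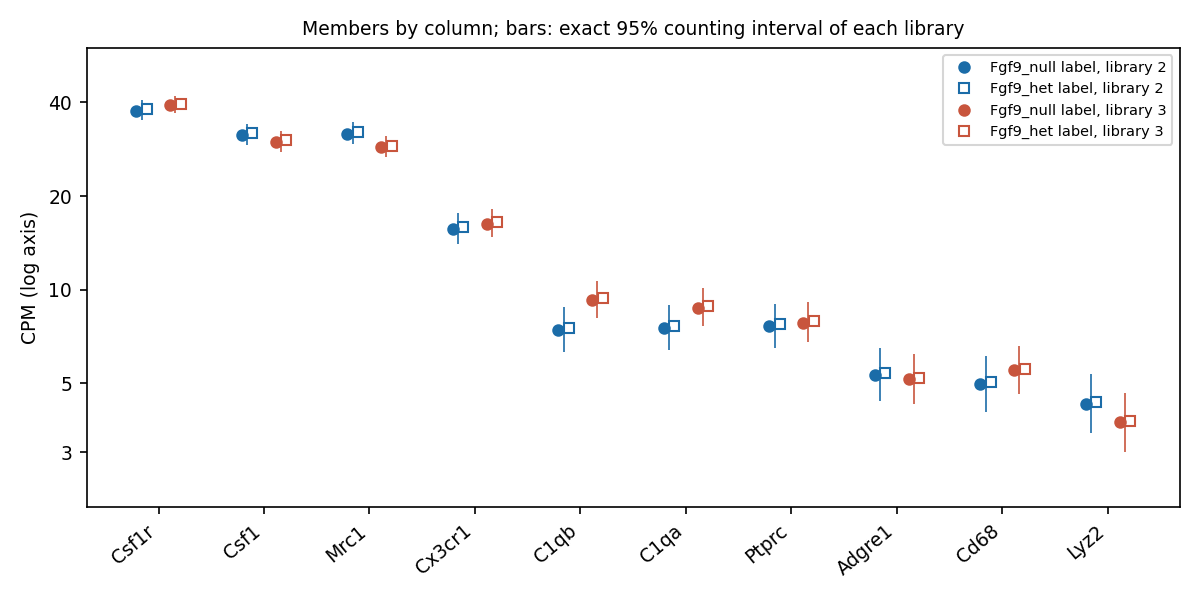
CPM of the 10 genes (log axis) in each of the 4 columns, with filled circles for the Fgf9_null label, open squares for the Fgf9_het label and vertical lines for the exact 95% counting interval of each library. Symbols of the same colour nearly coincide because both columns hold 1 library; Csf1r, Csf1 and Mrc1 lie between 28.7 and 39.7 CPM, Cx3cr1 between 15.7 and 16.5 CPM and the other 6 genes at 9.41 CPM or less.

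C1qa and C1qb encode the A and B chains of C1q, the recognition part of the first complement component, which tissue macrophages secrete. C1qa (ENSMUSG00000036887, chromosome 4, 136895917 to 136898803) had 7.52 and 8.76 CPM in the Fgf9_null columns and 7.63 and 8.87 CPM in the Fgf9_het columns, from 147 and 199 reads. C1qb (ENSMUSG00000036905, chromosome 4, 136880129 to 136886187) had 7.42 and 9.29 CPM and, under the other label, 7.52 and 9.41 CPM, from 145 and 211 reads. Both genes were higher in library 3, whose 2 columns repeat the same reads. C1qc, the C chain gene between them, 3616 bases from C1qb and 2851 bases from C1qa, stood at 8.97 CPM in library 2 against 10.8 CPM in library 3.

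The levels of the A and B chain genes were nearly equal per kilobase, with C1qa at 1.06 times C1qb in library 2 and 0.987 times in library 3. C1qc was 0.676 and 0.652 times C1qb by exon union, but its exon union (1931 bases) is longer than its longest transcript (1203 bases), and scaled to the longest transcript it averaged 8.22 CPM per kilobase against 7.73 for C1qb. None of the 31-base words of the 3 genes occurs in transcripts of another gene. Beyond C1q, a list of 14 complement genes had 13 above 1 CPM in both libraries, led by the inhibitor gene Serping1 at 25.8 ± 0.743 CPM and the factor B gene Cfb at 11.0 ± 0.167 CPM. C1ra and C1s1, the proteases that complete the first component, had 5.29 ± 0.961 and 5.01 ± 0.282 CPM. C3, the central complement protein, stood at 2.11 CPM in library 2 against 3.28 CPM in library 3. C5ar1, the receptor for the complement fragment C5a, lay the other way, 1.66-fold higher in library 2 (37 and 26 reads).

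Genes of the lysosome and its granules were at the low end by CPM. Cd68, a lysosomal membrane glycoprotein rich in phagocytes (ENSMUSG00000018774, chromosome 11, 69664213 to 69666153), had 4.96 and 5.50 CPM in the Fgf9_null columns and 5.03 and 5.57 CPM in the Fgf9_het columns, with a mean of 5.27 ± 0.381 CPM. Lamp1, the member of the same family that most cells express, was 14.2 and 13.7 times as high per kilobase. Lamp2 was 2.66 and 2.45 times as high by exon union. Per kilobase of the longest transcript, Lamp2 averaged 28.4 CPM against 4.28 CPM for Cd68. Lamp3 and Lamp5 had at most 3 reads in each library.

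Lyz2, the lysozyme gene of myeloid cells that break down bacterial walls (ENSMUSG00000069516, chromosome 10, 117277331 to 117282321), had 4.30 and 3.74 CPM in the Fgf9_null columns and 4.36 and 3.79 CPM in the Fgf9_het columns. It was the lowest of the 10 genes by CPM, at 4.05 ± 0.398, with 84 reads in library 2 and 85 in library 3. Lyz1, the copy that intestinal Paneth cells use, lies 5475 bases away and had no reads in either library. Against a floor of 3 counts per library, Lyz2 had at least 28.0-fold more reads than Lyz1 in library 2 and at least 28.3-fold more in library 3. Of the 31-base words of Lyz2, 32.8% also occur in Lyz1, yet all Lyz2 counts were whole numbers. Reads were thus assigned to only 1 of these copies, whose promoter windows are nearly identical around the start but not over their whole length.

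Scaled to length, the order of the 10 genes differed from that by CPM. C1qa and C1qb led at 7.88 ± 0.844 and 7.73 ± 1.22 CPM per kilobase of exon union, followed by Csf1r at 6.69 ± 0.195, Csf1 at 5.84 ± 0.208 and Mrc1 at 4.78 ± 0.340. Cd68 had 4.19 ± 0.303, Cx3cr1 3.57 ± 0.0961, Lyz2 3.08 ± 0.303, Adgre1 1.63 ± 0.0384 and Ptprc 0.425 ± 0.00802 CPM per kilobase. Neighbours in this order differed by more than the larger of their SDs except C1qa against C1qb and C1qb against Csf1r. With the longest transcript as the length, Csf1r came first at 8.22 CPM per kilobase. The value of Ptprc was then 1.36 CPM per kilobase, because its exon union of 18313 bases includes sequence beyond its longest transcript of 5740 bases; it stayed last in both orders.

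The design asks whether these genes differ between Fgf9_null and Fgf9_het stomachs. With edgeR's quasi-likelihood test, adjusted over all genes, 0 of the 10 were called, against 0% of the 19987 genes tested. Log2 folds of Fgf9_null over Fgf9_het lay between 0.00029 for C1qb (SE 0.194) and 0.00033 for Mrc1 (SE 0.0748), each at an edgeR adjusted p of 1. Over the table, 4 genes had an unadjusted p under 0.05, none of them among the 10, and DESeq2 called 3 genes (0.0101% of 29597), again none of the 10. Of the 195 genes in all lists used here, 149 were tested, 0 were called, and the largest absolute log2 fold was 0.0217, beside a median of 0.00030 over all genes tested. Since each library stands under both labels, these folds compare each library with itself and measure no effect of Fgf9, and the p-values reflect only the spread among the 4 columns.

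Between library 2 and library 3, which are 1 sample each, there is no replicate check, and the intervals below cover counting error only. No gene of the 10 passed 1.5-fold, a difference reached by 3.88% of the 16712 genes with at least 1 CPM in both libraries. The 9 macrophage genes together summed to 123 CPM in library 2 and 125 CPM in library 3. Of the 10 genes, 4 were higher in library 2 and 6 in library 3, where 45.8% of all genes were higher. The median log2 ratio of library 2 over library 3 was -0.047 for the 10 genes and 0.016 for all genes.

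Lyz2 and Mrc1 had the highest ratios toward library 2, at 1.15-fold (0.840 to 1.57) and 1.11-fold (0.989 to 1.24), and Csf1 followed at 1.05-fold (0.941 to 1.17). Toward library 3, the ratio of library 2 over library 3 was 0.799 for C1qb (0.642 to 0.992) and 0.859 for C1qa (0.689 to 1.07). It was 0.960 for Csf1r (0.869 to 1.06), and the ratios of Adgre1 and Ptprc were closer to 1. The interval of C1qb alone left out 1, which was so for 23% of all genes compared, so 1 of 10 is no more than the background.

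The 3 C1q genes pointed the same way, with C1qc 1.21-fold higher in library 3 (0.988 to 1.47). Their summed reads were 466 and 654, or 24.0 and 29.0 CPM, a 1.21-fold higher level in library 3 (1.07 to 1.36); this sum was formed after the values were seen. Of the 20 other macrophage genes above 1 CPM in both libraries, 12 were higher in library 3 and 8 in library 2. The 2 past 1.5-fold were Tyrobp and Fcer1g, adaptor genes of activating receptors on macrophages. Both were higher in library 3, by 1.60-fold (37 and 69 reads) and 1.54-fold (42 and 75 reads). Other lists leaned to library 2 among genes above 1 CPM. Higher there were 6 of 9 macrophage transcription factor genes, 4 of 6 microglia-enriched genes and 6 of 10 pan-leukocyte genes. Of 9 genes relaying the CSF1 receptor signal, 5 were higher in library 3. Genes whose longest transcript has at most 1500 bases had a median ratio of library 3 over library 2 of 1.02, and longer genes one of 0.986. Of the shorter genes 54.5% were higher in library 3, against 44.3% of the longer ones. The C1q genes, Tyrobp, Fcer1g and Cd68 (1.11-fold) have such short transcripts and were higher in library 3. Lyz2 at 1.15-fold, Pf4 at 1.22-fold and H2-Ab1 at 1.65-fold also have them and were higher in library 2. These genes were named with their values in view. Erythroid genes, a sign of blood in the tissue, summed to 873 CPM in library 2 and 1112 CPM in library 3, with all 5 genes above 1 CPM higher there, 1 of them (Hbb-bt, at 1.54-fold) past 1.5-fold. A list of 6 monocyte genes summed to 44.5 and 48.9 CPM, with Chil3 at 0 and Ccr2 at 19 and 27 reads. Its 2 genes above 1 CPM went opposite ways, Plac8 at 25.7 and 31.9 CPM and F13a1 at 17.2 and 15.6 CPM. Ly6c2 had 9 and 3 reads. The part of transcript length and of blood in the C1q difference was not tested.

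**Figure D2:**
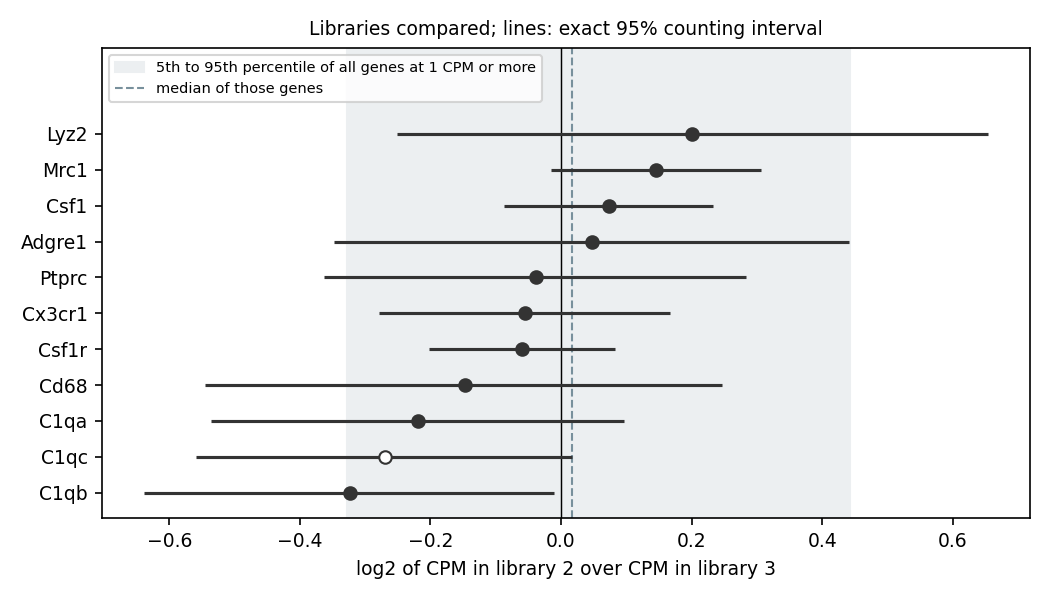
Log2 ratio of CPM in library 2 over CPM in library 3 for the 10 genes and C1qc (open point), with exact 95% counting intervals; the grey band spans the 5th to 95th percentile (-0.33 to 0.44) of the 16712 genes at 1 CPM or more and the dashed line is their median. All points lie inside the band, and only the C1qb interval lies wholly on 1 side of 0.

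Other macrophage genes were detected broadly. Of 24 further macrophage genes, 20 exceeded 1 CPM in both libraries, with a median log2 ratio of -0.041. The cathepsin gene Ctsb and the scavenger receptor gene Stab1 led at 213 ± 9.07 and 120 ± 7.74 CPM, and both are also expressed outside macrophages. The efferocytosis receptor gene Mertk had 13.8 ± 0.0281 CPM, inside the range of the 10 genes. The Fc receptor gene Fcgr1 at 1.99 ± 0.178 CPM and Trem2 at 1.85 ± 0.0717 CPM lay below all 10. These 3 were picked after their values were seen. Timd4, a phosphatidylserine receptor of long-lived resident macrophages, had at most 3 reads in each library. Cd163, Folr2 and Gpnmb also had means under 1 CPM.

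Transcription factor genes of the lineage were present, with 9 of 10 above 1 CPM in both libraries. Zeb2 and Maf led at 311 ± 6.05 and 55.4 ± 1.57 CPM, factors that mesenchyme or neural cells also express. Spi1, whose product PU.1 is largely restricted to blood cells, had 54 and 75 reads and 3.05 ± 0.382 CPM. Irf8, a factor of monocytes and macrophages, had 14.4 ± 1.02 CPM. Of 10 genes that relay the CSF1 receptor signal, 9 exceeded 1 CPM, led by the widely expressed Cbl and Grb2 at 141 ± 8.42 and 50.8 ± 0.362 CPM. The microglia-enriched list had 6 of 8 genes above 1 CPM. Olfml3 at 59.2 ± 6.38 CPM and Tmem119 at 37.3 ± 2.26 CPM led it, genes that connective tissue also expresses. The more restricted P2ry12 had 35 and 25 reads, 1.63-fold higher in library 2 (0.947 to 2.84).

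Marker lists of blood cells gave sums to set beside the 123 and 125 CPM of the 9 macrophage genes. The 10 pan-leukocyte genes, all above 1 CPM, summed to 138 and 136 CPM in libraries 2 and 3, led by Lcp1 and Laptm5 at 76.0 ± 1.57 and 20.9 ± 0.816 CPM. The monocyte list had 2 of 6 genes above 1 CPM, Plac8 at 28.8 ± 4.44 and F13a1 at 16.4 ± 1.15 CPM. Dendritic cell and MHC class II genes summed to 38.3 and 36.1 CPM, with Zbtb46, also an endothelial gene, at 16.7 ± 0.0479 CPM and the invariant chain gene Cd74 at 5.10 ± 0.0629 CPM. T cell genes summed to 5.23 and 5.89 CPM, with Cd3e and Cd3g at 1 read or fewer in each library. B cell genes summed to 7.44 and 7.10 CPM. The neutrophil list had 1 of 10 genes above 1 CPM, Csf3r, and summed to 5.43 and 3.55 CPM. No mast cell gene of 8 exceeded 1 CPM, and Fcer1a and Ms4a2 had no reads. Of the innate lymphoid and natural killer genes, Ncr1 and Klrb1c were at 0. Platelet genes summed to 7.15 and 7.91 CPM. Lists hold different genes of different lengths, so the sums do not measure cell numbers.

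**Figure D3:**
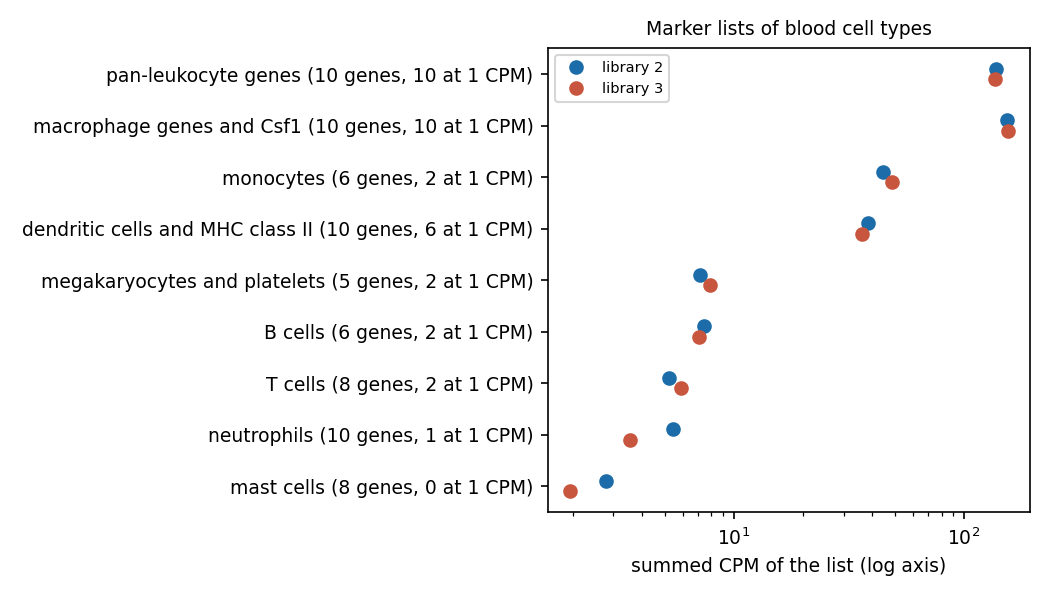
Summed CPM (log axis) of marker lists for blood cell types in library 2 and library 3, with the number of genes in each list and the number above 1 CPM in both libraries. The macrophage genes with Csf1 and the pan-leukocyte genes lie at 136 CPM or more, and the mast cell, neutrophil and T cell lists at 5.89 CPM or less.

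Signals that draw leukocytes were uneven. Of 14 chemokine and receptor genes, 6 exceeded 1 CPM in both libraries, led by Cxcl12 and its receptor gene Cxcr4 at 131 ± 1.76 and 30.1 ± 1.39 CPM. Genes of inflammatory chemokines were near the floor: Ccl4 had no reads, Ccl7, Ccl12 and Cxcl10 had at most 3 reads in each library, and Ccl2 had 9 and 15 reads.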

How the data were processed

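Per the labels' protocols, ribosomal RNA was digested with RNase H and the remaining total RNA was copied with random hexamers. Salmon 1.8.0, Trimmomatic 0.33, FastQC 0.10 and edgeR are listed in the submitters' processing notes, beside GRCm38 and mm10; their roles are unstated, with annotation and strand setting not given in the sources used here. In the table that the authors deposited, values are estimated counts per gene without scaling to depth. Groups come from the genotype field and replicate numbers 2 and 3 from the titles, which abbreviate Fgf9_het as WT. A further 2 columns of values carry no name and were not used.

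After rounding, the estimated counts were fitted in R 4.3.3 by edgeR 4.0.16 (quasi-likelihood F test, filterByExpr, TMM factors, Benjamini-Hochberg adjustment over all genes, threshold 0.05), with DESeq2 1.42.0 and limma-voom (limma 3.58.1) as alternatives. The fits and the check for shared columns were tested on simulated data. With 4 genes that differ between the labels left out (Rn7s6, Rn7s1, Gm19220 and Gm26461, chosen after the values were seen), a chi-square statistic over its degrees of freedom was 0.000792 and 0.00385 between same-numbered columns and 5.49 to 5.50 between others. Deviations from group means of same-numbered columns correlated at 1.00 (Pearson, across 17153 genes, which are not replicates), so the replicate numbers pair columns of 1 library. Intervals are exact at 95% (Poisson for counts, binomial for ratios) and cover counting error only; 1 count is worth 0.0440 to 0.0519 CPM, and the floor is 3 counts. Positions, lengths and 31-base words come from GENCODE M21 (GRCm38), promoter windows from RefSeq. The 10 genes and the lists were chosen with earlier results of these data known. Named genes were drawn from the 10 genes, Fgf9, Lyz1, C1qc and the 2 most abundant genes of each list, and list genes at or under 3 counts or past 1.5-fold between libraries; any other gene was picked with its values in view, and some list genes are not reported here. No likeness of pattern between genes can be computed from 2 libraries.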

Additional observations from a re-analysis of the deposited data

How the results depend on the processing

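The number of genes called between the labels was 0 with edgeR under TMM and RLE factors and without a filter on low counts, and 0 with limma-voom; it was 3 with DESeq2 and 6 with the replicate block, where a block holds 1 library. None of the 10 genes was called under any of these settings, and their 50 log2 folds ran from 0.00026 to 0.00081, all of the same sign. Leaving out 1 column gave 1 to 2 called genes, none of the 10; the column then left alone in its group is assumed to vary as the others do. The remaining columns then hold the libraries in unequal numbers, and the log2 folds took either sign with the library left out: -0.014 to 0.014 for Adgre1, -0.13 to 0.13 for C1qa, -0.18 to 0.19 for C1qb, -0.088 to 0.088 for Cd68, -0.026 to 0.026 for Csf1, -0.041 to 0.041 for Csf1r, -0.039 to 0.040 for Cx3cr1, -0.090 to 0.091 for Lyz2, -0.063 to 0.063 for Mrc1, -0.030 to 0.031 for Ptprc. The number of the 10 genes past a fold between libraries was 0 at 1.5-fold, 1 at the looser threshold, which 14.6% of all genes passed, and 0 at 2-fold, which 0.521% passed. CPM levels from the Fgf9_null columns alone were 0.993 times and from the Fgf9_het columns alone 1.01 times those reported. Without 6 structured and ribosomal RNA genes in the library size, all 10 levels were 1.20 to 1.21 times as high, each moved by more than 1 SD, while the ratios between libraries stayed inside their intervals. With the longest transcript as the length, 4 of 10 levels per kilobase moved by more than 1 SD, that of Ptprc by 3.19 times. Depth limits the genes with the fewest reads, such as Lyz2 at 84 and 85, whose interval is wider than the difference between libraries, and 2 libraries limit every comparison.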
